A study of Mus musculus with 10 samples.

Results

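Translation initiation factor genes were described in tibialis anterior, the fast muscle that lifts the foot, of mice labelled Lrtm1 knockout and of Lrtm1 flox controls. The set held every gene whose symbol begins with Eif and a digit from 1 to 6, other than Eif4ebp1 and Eif2s3y, which gave 52 of the 13492 genes measured. All mice were on a C57BL/6 background, were 6 months old and had fasted for 3 h. The 5 libraries labelled knockout and the 5 labelled control came from 3 litters. Litter 108 gave 2 knockout and 1 control libraries, litter 110 gave 1 and 2, and litter 112 gave 2 and 2. The series' design text states a smaller group size than these labels. The sources used here do not give the part of Lrtm1 that was deleted or any Cre line used to delete it. Separate animals are not stated in the labels, and p-values therefore cover only the spread among these samples, which may be technical.

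Values were adjusted log2 CPM, the log2 of counts scaled to a common library total. Differences are libraries labelled knockout minus libraries labelled control, on that log2 scale. The depth behind the values is unknown, and the medians of the libraries lay between 3.35 and 3.36 log2 CPM. Lrtm1 itself was no lower under the knockout label. It lay between 5.97 and 6.21 log2 CPM there and between 5.61 and 5.78 in the libraries labelled control, a difference of 0.44 (SE 0.07, adjusted p = 0.0344 by limma). Groups are therefore named by their labels throughout, and the libraries called control here carry WT in their titles. All 8 myofibre markers examined were in the table. They summed to between 113103 and 130292 CPM in a library, and none passed the test. All 5 adipocyte markers tested had differences below 0, with a median of -0.89, and Retn was too low to test. The list summed to 67.8 to 78.3 CPM in the libraries labelled knockout against 78.01 to 93.8 CPM in the controls. Most of that sum was Fabp4 (means of 62.7 against 64.6 CPM), which differed by only -0.05 (SE 0.06). The less abundant Lep (-2.21), Adipoq (-0.98), Plin1 (-0.89) and Cfd (-0.62) had larger differences. With genotype and litter only, 3 of these 5 markers passed as lower, against 3.48% of all genes. All 4 tendon markers, all 4 Schwann cell markers and all 5 macrophage markers also had differences below 0, as had 51.4% of all genes. No marker of these 4 lists passed with the removed terms counted. Other lists were mixed, with 3 of 4 fibroblast, 4 of 5 erythroid, 2 of 5 endothelial and 1 of 3 smooth muscle markers below 0. Their medians were -0.10, -0.04, 0.05 and 0.07, and none of their markers passed. In bulk muscle, fewer cells of a type and less RNA per cell cannot be told apart, and the part of these cells in the results was not tested.

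Translation of most mRNAs begins when the cap is bound by eIF4E, held by the scaffold eIF4G together with the helicase eIF4A, and when the small ribosomal subunit arrives with eIF3 and a carrier of initiator tRNA, eIF2 bound to GTP. eIF2B recharges eIF2 with GTP after each round, and kinases that phosphorylate the eIF2 alpha subunit block that exchange, which lowers general initiation and raises translation of a few mRNAs such as that of Atf4. In muscle, insulin and amino acids act on the cap-binding step through mTORC1 and the eIF4E-binding proteins. These controls work mostly on proteins and their phosphorylation, which mRNA levels do not show.

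None of the 51 initiation factor genes tested passed the threshold, an adjusted p of 0.05 by limma with the terms the authors removed counted in the fit. Among all 12223 genes tested, 41 passed (0.335%), with 0.27% higher and 0.0655% lower. None of the 51 had an unadjusted p under 0.05 in that fit, against 10.1% of all genes. A fit with genotype and litter only, which takes the residual spread to be better known than it is, called 8.62% of all genes (5.15% higher and 3.48% lower) and none of the 51. In that fit 9 of the 51 (17.6%) had an unadjusted p under 0.05, against 26.4% of all genes. The median difference over the 51 was -0.0087, beside -0.0041 over all genes, with 28 genes below 0 and 23 above. Differences of at least 0.1 were found for 7 members (13.7%) and for 40.4% of all genes. The members were the more abundant genes, with a median level of 5.53 log2 CPM against 3.64 for all genes tested. The 95% interval of the difference lay within 1.2-fold either way for 42 members and within 1.5-fold for all 51. These intervals are of the deposited values and leave out the variation the authors removed.

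**Figure D1:**
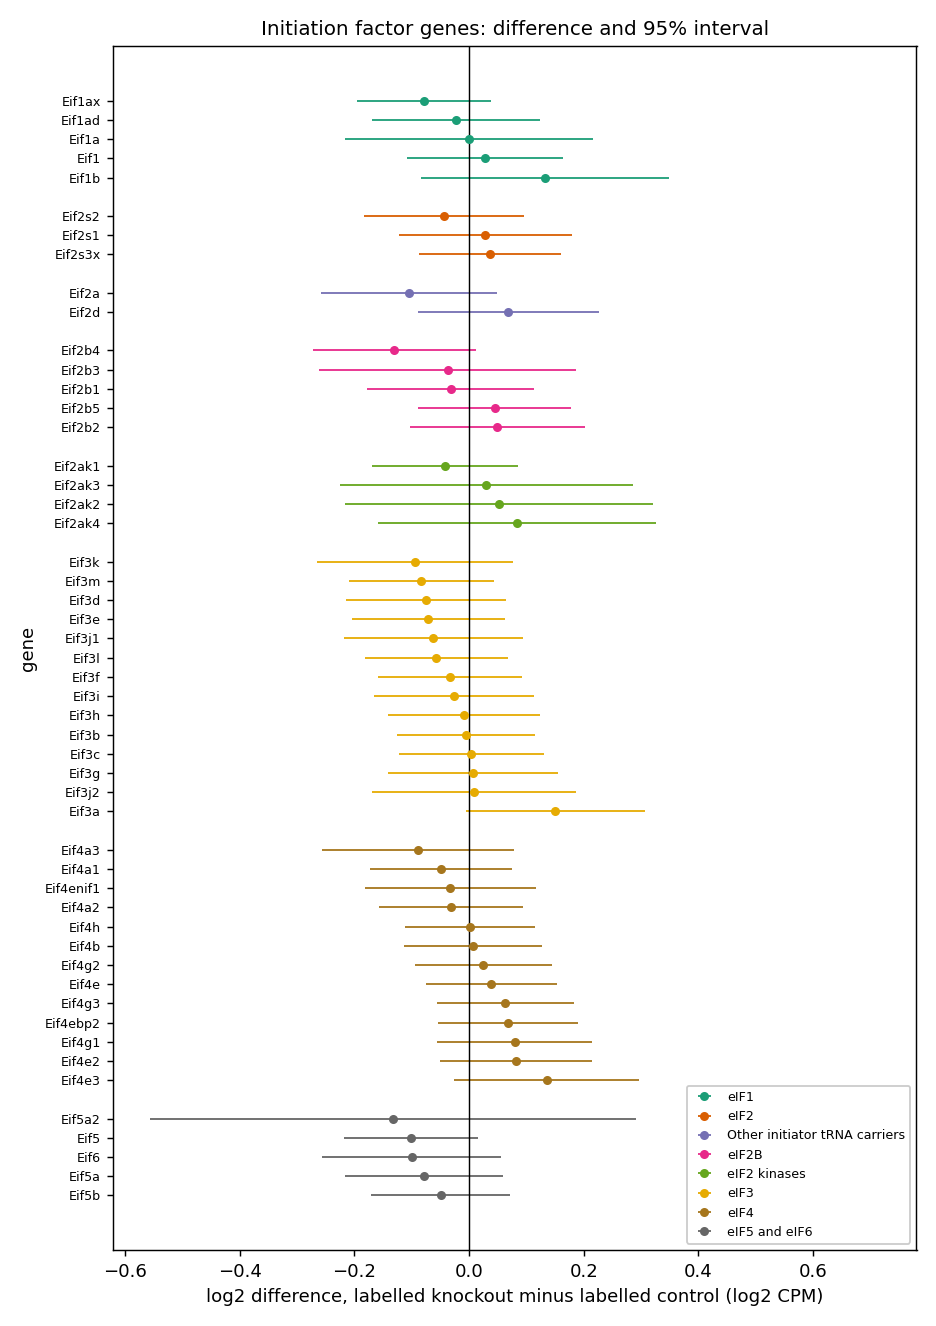
Log2 difference (labelled knockout minus labelled control, x axis) of each of the 51 initiation factor genes tested, grouped by factor, with points at the limma estimate and bars for the 95% interval. Every interval includes 0, the estimates run from -0.13 (Eif5a2) to 0.15 (Eif3a), and Eif5a2 has the widest interval.

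The groups of libraries did not overlap for 5 members (9.8%), against 16.2% of all genes. All of these, Eif1ax, Eif2b4, Eif3l, Eif3m and Eif6, were lower in the libraries labelled knockout, a direction that 7.63% of all genes showed without overlap. None was higher without overlap, which 8.56% of all genes were. The difference had the same sign in every litter for 26 of the 51 (51.0%) and for 47.9% of all genes.

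The start-site windows of the genes in RefSeq on GRCm38.p6, from 250 bases before to 50 after each start, were read for letters that the members share. Windows were found for 42 members, at annotated starts that were not mapped in this muscle. A start with a C followed by pyrimidines, at least 5 in all, which is the form of the terminal oligopyrimidine mRNAs whose translation follows mTORC1, was present in 2 of the 42 (4.76%), against 3.08% of genes tested and 3.01% of all genes with a window. They are shown from 5 bases before the start, with the pyrimidine run in capitals, at chr7:108934410-108934439 on the plus strand for Eif3f and at chrX:94212627-94212656 on the minus strand for Eif2s3x. Each run is 11 bases long.
Eif3f: gctctCTCTCTTTCTCggcaagatggcttc
Eif2s3x: ttttcCTTTTCTCTCCgagcaagatggctg

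The ETS core CCGGAAGT, searched on both strands, was in the windows of 8 members (19.0%), against 9.16% of genes tested and 4.31% of all genes with a window. Those 8 members had a median difference of -0.066, and none passed the test. The E-box CACGTG, which reads the same on both strands, was in 10 members (23.8%), against 12.0% and 8.09%, and those members had a median difference of -0.016. Examples, chosen after the values were seen, are shown with the match in capitals for genes with differences on both sides of 0. For the ETS core they are Eif2b4 (chr5:31193120-31193149, minus strand) and Eif2b2 (chr12:85219481-85219510, plus strand). For the E-box they are Eif3a (chr19:60790664-60790693, minus strand), Eif1b (chr9:120492571-120492600, plus strand) and Eif5a2 (chr3:28781124-28781153, plus strand).
Eif2b4: cccagtgcacgCCGGAAGTtgtagtccgct
Eif2b2: gttgacctctctcggcCCGGAAGTgaaaca
Eif3a: ggcgctgccgccgcgagggaatCACGTGgt
Eif1b: gtgcggacggtCACGTGgcggcggcgcgcg
Eif5a2: ctaatccgcagCACGTGgggttgccagggc
Eif2b4 and Eif2b2 are 2 subunits of eIF2B with differences of opposite sign. Eif3a had the highest and Eif5a2 the lowest difference of all members, and the Eif5a2 match lay at -142 from the start. These examples do not stand for all members with a match, and whether a match goes with the difference was not tested. The GC box GGGCGG was in 32 members (76.2%, against 69.1% of genes tested), and CCAAT was in 15 (35.7%, against 42.9%). The YY1 core AAGATGGC was in 4 (9.52%, against 5.50%) and the TATA box TATAAA in 3 (7.14%, against 9.02%). The cyclic AMP response element TGACGTCA was in none, against 3.56% of genes tested. A match describes the letters of a window and does not show a bound site. The motifs were chosen after start windows had been seen, so the shares are a description only and were not tested.

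The eIF2 complex brings the initiator tRNA to the ribosome. Its alpha subunit gene Eif2s1, whose protein carries the serine that the stress kinases phosphorylate, measured 4.48, 4.50, 4.53, 4.49 and 4.41 log2 CPM in knockout replicates 1 to 5 and 4.44, 4.49, 4.37, 4.51 and 4.46 in control replicates 1, 3, 4, 5 and 6. Here and below, libraries are listed in that order. The beta subunit gene Eif2s2, at 6.96, 7.01, 7.05, 7.06 and 6.89 in the libraries labelled knockout and 7.05, 7.09, 6.93, 7.10 and 7.02 in those labelled control, had a difference of -0.04 (SE 0.06). For the gamma subunit gene Eif2s3x, whose protein binds GTP and the tRNA, the values were 6.73, 6.69, 6.74, 6.70 and 6.67 against 6.66, 6.66, 6.65, 6.77 and 6.61. The groups overlapped for all 3 subunits, with differences of 0.03 for Eif2s1 (SE 0.07) and 0.04 for Eif2s3x (SE 0.06) and adjusted p-values from 0.873 to 0.931 by limma.

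The other carriers of initiator tRNA are single proteins that can replace eIF2 on some mRNAs. Eif2a measured 4.84, 4.76, 4.79, 4.80 and 4.84 in the libraries labelled knockout and 4.92, 4.84, 4.99, 5.0 and 4.80 in those labelled control. It was among the 3 lowest differences, at -0.10 (SE 0.07, adjusted p = 0.674), and control replicates 3 and 6 lay at the level of the libraries labelled knockout. Eif2d, with a role also in reinitiation, had a difference of 0.07 (SE 0.07).

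eIF2B, the exchange factor of eIF2, has 5 subunits, and 3 had differences below 0 and 2 above, with a median of -0.03. Eif2b4, the delta subunit of its regulatory core, measured 5.30, 5.22, 5.26, 5.12 and 5.24 in the libraries labelled knockout and 5.30, 5.34, 5.35, 5.43 and 5.37 in those labelled control. Every library labelled knockout lay below every control, although the closest pair, replicate 1 of each label, was equal to 2 decimals. The difference was -0.13 (SE 0.06, 95% interval -0.27 to 0.01), with an adjusted p of 0.538 by limma and 0.0838 in the fit with genotype and litter only. The other subunits of the regulatory core, Eif2b1 (-0.03) and Eif2b2 (0.05), and the catalytic pair Eif2b3 (-0.04) and Eif2b5 (0.04, the subunit with the exchange activity), overlapped between labels. Eif2b4 thus had the largest difference of the complex, and its exons overlap those of Snx17 on the opposite strand by 204 bases.

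The 4 eIF2 kinases each answer another signal. Eif2ak1 encodes HRI, which responds to low heme and to mitochondrial stress, and measured 5.57, 5.60, 5.56, 5.61 and 5.62 in the libraries labelled knockout and 5.65, 5.64, 5.66, 5.55 and 5.66 in those labelled control. Its difference was -0.04 (SE 0.06), and control replicate 5 was the lowest of all 10 libraries while the other controls were the highest. Eif2ak2 encodes PKR, which is activated by double-stranded RNA, and measured 2.08, 2.05, 2.11, 1.92 and 1.96 against 1.89, 2.01, 1.85, 2.08 and 2.03.
Both labels spanned nearly the same range for Eif2ak2, with a difference of 0.05 (SE 0.12). Eif2ak3 encodes PERK, which senses unfolded proteins in the endoplasmic reticulum, and measured 2.27, 2.27, 2.19, 2.35 and 2.41 against 2.32, 2.21, 2.43, 2.14 and 2.23, a difference of 0.03 (SE 0.12). Eif2ak4 encodes GCN2, the sensor of uncharged tRNA, and measured 2.47, 2.39, 2.36, 2.39 and 2.54 against 2.35, 2.27, 2.49, 2.31 and 2.30. Its difference of 0.08 (SE 0.11) was the largest of the kinases, with control replicate 4 inside the range of the libraries labelled knockout. Adjusted p-values of the 4 ran from 0.850 to 0.956 by limma. Per kilobase of the longest annotated transcript, Eif2ak1 stood at 3.50 log2 CPM, well above Eif2ak3 (0.11), Eif2ak4 (-0.02) and Eif2ak2 (-0.11), so HRI had the most abundant kinase mRNA in this muscle. The order of the latter 3 is not secure, since their SDs between libraries of a label ran from 0.08 to 0.11.

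Around these kinases lay the only gene of the translation lists examined that passed the test. Of 12 tested genes that regulate eIF2 phosphorylation (the phosphatase subunits, GCN1 and other kinase partners, and eIF5 mimics), 1 rose and none fell (0.27% and 0.0655% of all genes). Impact, whose protein competes with GCN2 for GCN1 and so restrains GCN2, measured 4.84, 4.80, 4.88, 4.58 and 4.67 log2 CPM in the libraries labelled knockout. The libraries labelled control measured 3.98, 4.18, 3.91, 4.23 and 4.23. All 5 libraries labelled knockout lay above all 5 controls, at 27.1 ± 2.26 CPM (SD, n = 5) against 17.3 ± 1.77 CPM (SD, n = 5). The rise was 1.57-fold, a log2 difference of 0.65 (SE 0.10, 95% interval 0.43 to 0.87, adjusted p = 0.0294 by limma). By litter, the difference was 0.84 (108), 0.83 (110) and 0.39 (112). The call was lost without knockout replicate 3 (adjusted p = 0.0925), control replicate 1 (0.1175), control replicate 5 (0.0604) or control replicate 6 (0.0529), and without a trend on mean expression (0.304), while the difference stayed between 0.57 and 0.70 with any 1 library left out.

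Beside Impact, GCN1 (Gcn1), which couples stalled ribosomes to GCN2, had a difference of 0.09 (SE 0.07). The phosphatase subunits that direct PP1 to eIF2, Ppp1r15a (0.0017) and Ppp1r15b (-0.03), and the PERK and PKR inhibitor Dnajc3 (-0.07) did not pass the test. Bzw2, an eIF5 mimic, lay between 5.47 and 5.54 in the libraries labelled knockout and between 5.63 and 5.68 in those labelled control. The difference of Bzw2 was -0.15 (SE 0.06), with an adjusted p of 0.371, or 0.0117 with genotype and litter only.

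**Figure D2:**
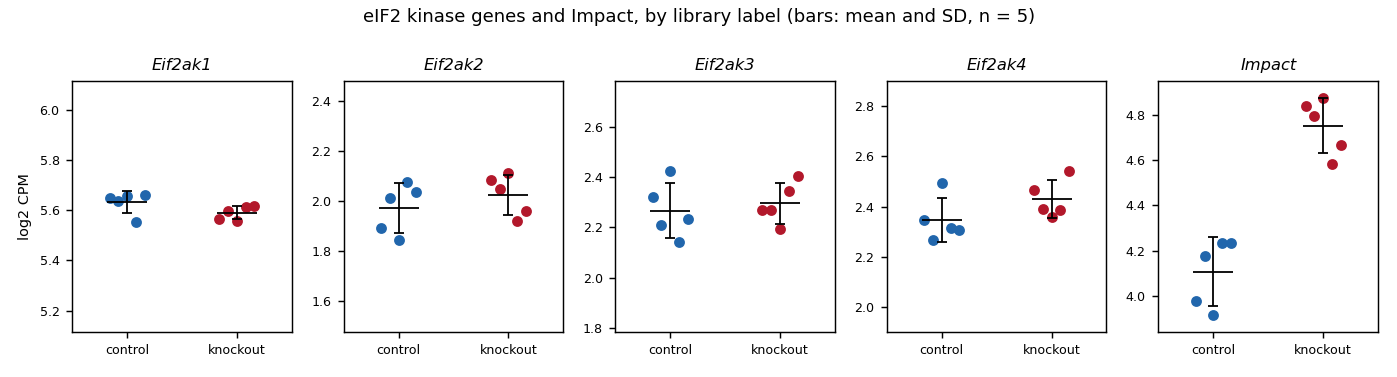
Level (log2 CPM, y axis, range set per gene) of the 4 eIF2 kinase genes and of Impact in each of 5 libraries labelled control (blue) and 5 labelled knockout (red), with bars for the mean and SD. The labels overlap for each kinase, while every library labelled knockout lies above every control for Impact, at 4.58 to 4.88 against 3.91 to 4.23.

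Genes that ATF4 and its partners induce when eIF2 is phosphorylated gave no call. Of 20 listed, 17 were measured, without Slc7a11, Fgf21 and Gdf15, and 16 were tested. None passed with the removed terms counted, 5 lay below 0, and the median difference was 0.07. Differences ran from -0.58 (Psat1, SE 0.26) to 0.60 (Atf3, SE 0.23), and the labels overlapped for both. Atf4 itself differed by 0.04 (SE 0.05, adjusted p = 0.836). With genotype and litter only, 4 of the 16 passed as higher and 1 as lower, against 5.15% and 3.48% of all genes. Slc7a5, an amino acid transporter that imports leucine, measured 1.58, 1.63, 1.65, 1.65 and 1.53 in the libraries labelled knockout and 1.2, 1.24, 1.1, 1.21 and 1.21 in those labelled control, a difference of 0.42 (SE 0.14). For Ddit3, the stress transcription factor CHOP, the values were 2.39, 2.44, 2.46, 2.48 and 2.35 against 2.68, 2.71, 2.59, 2.70 and 2.66, a difference of -0.24 (SE 0.10). Labels did not overlap for either gene, in opposite directions, and adjusted p was 0.321 for Slc7a5 and 0.434 for Ddit3 (0.00695 and 0.0193 with genotype and litter only). Vldlr, a lipoprotein receptor (0.16), and Shmt2, a mitochondrial serine enzyme (0.13), were also above 0, with adjusted p-values of 0.355 and 0.558 that were 0.0277 and 0.0470 with genotype and litter only. Atf5 (0.12) had an adjusted p of 0.529 by limma, or 0.0362 with genotype and litter only. Vldlr, Shmt2, Atf5 and Mthfd2 (0.24, adjusted p = 0.579) were all higher without overlap. Without overlap, 8.56% of all genes were higher and 7.63% lower.

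eIF1 and eIF1A open the small subunit for scanning and guard the choice of start codon. Eif1 measured 8.27, 8.31, 8.34, 8.40 and 8.22 against 8.32, 8.30, 8.22, 8.35 and 8.21, a difference of 0.03 (SE 0.06). Its paralog Eif1b was among the 3 highest differences, at 4.11, 4.24, 4.29, 4.27 and 4.00 in the libraries labelled knockout and 4.06, 4.17, 3.82, 4.10 and 4.10 in those labelled control. Knockout replicates 2, 3 and 4 lay above every control and control replicate 4 lay below every library labelled knockout, while the others overlapped. The Eif1b difference of 0.13 had an SE of 0.10 and an adjusted p of 0.705. Eif1ax, the X-linked eIF1A gene, measured 6.40, 6.41, 6.43, 6.45 and 6.38 against 6.51, 6.50, 6.47, 6.53 and 6.46, and Eif1a measured 3.56, 3.43, 3.52, 3.30 and 3.43 against 3.35, 3.42, 3.40, 3.65 and 3.42. Labels did not overlap for Eif1ax (-0.08, SE 0.05, adjusted p = 0.677), and the Eif1a difference was 0.00 to 2 decimals (SE 0.10). Eif1ad, a nuclear protein with an eIF1A domain, differed by -0.02 (SE 0.07). Per kilobase, Eif1 (7.89) exceeded Eif1b (4.07) and Eif1ax (4.08) exceeded Eif1a (1.93), gaps that the differences between libraries do not approach.

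The eIF3 complex, the scaffold on the small subunit, was represented by 14 genes, of which 10 were below 0 and 4 above. Eif3a, the largest subunit, had the highest difference of all members, with 6.64, 6.71, 6.73, 6.66 and 6.55 in the libraries labelled knockout and 6.48, 6.59, 6.35, 6.53 and 6.59 in those labelled control. Of the libraries labelled knockout only replicate 5 fell within the control range. The difference was 0.15 (SE 0.07, 95% interval -0.0053 to 0.31), with an adjusted p of 0.514, or 0.134 with genotype and litter only. Among the rest of the complex, Eif3m and Eif3l did not overlap between labels, at -0.08 and -0.06 (SE 0.06 each). Eif3k (-0.09), Eif3d, which can itself bind the cap of some mRNAs (-0.07), Eif3e (-0.07), Eif3j1 (-0.06), Eif3f (-0.03) and Eif3i (-0.03) overlapped. The remaining subunits, Eif3b (-0.0053), Eif3c (0.0043), Eif3g (0.0066), Eif3h (-0.0087) and Eif3j2 (0.0087), lay within 0.01 of 0. The 4 initiation factor genes listed beforehand as of the oligopyrimidine class (Eif3e, Eif3f, Eif3h and Eif4b) had a median difference of -0.02. Of these only Eif3f showed such a start in the windows found. The median over eIF3 was -0.03, and it became -0.0019, with 7 of 14 below 0, when each difference was taken against the median of genes of like transcript length.

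**Figure D3:**
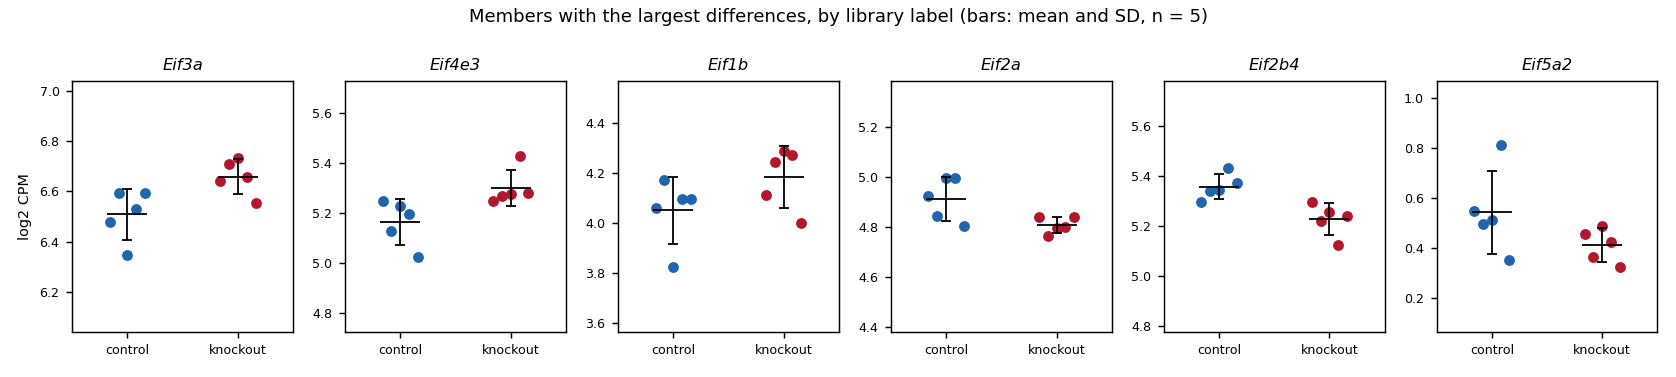
Level (log2 CPM, y axis, range set per gene) of the 3 members with the highest and the 3 with the lowest difference, in each library labelled control (blue) and knockout (red), with bars for the mean and SD of 5 libraries. Labels overlap for 5 of the 6 genes, and for Eif2b4 the highest library labelled knockout and the lowest control both read 5.30.

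Of the eIF4 genes, which act at the cap, 9 of 13 tested were above 0, with a median difference of 0.02 (0.02 against genes of like length). Eif4e, the main cap-binding protein, measured 6.59, 6.60, 6.62, 6.60 and 6.57 against 6.55, 6.57, 6.52, 6.58 and 6.56, a difference of 0.04 (SE 0.05). Eif4e2, which binds caps without eIF4G and represses, measured 5.61, 5.57, 5.62, 5.53 and 5.54 against 5.46, 5.50, 5.44, 5.57 and 5.49, a difference of 0.08 (SE 0.06). Eif4e3, an atypical cap-binding protein, measured 5.25, 5.27, 5.27, 5.43 and 5.28 against 5.25, 5.13, 5.23, 5.2 and 5.02, a difference of 0.14 (SE 0.07, adjusted p = 0.577). All 3 cap-binding genes were above 0 with overlapping groups. The libraries of Eif4e3 met at 5.25, and knockout replicate 4 and control replicate 6 set its extremes. Per kilobase of the longest transcript, Eif4e (4.26) lay above Eif4e3 (3.90) and Eif4e2 (3.74), but Eif4e2 stood at 4.68 with the principal transcript, so their order depends on the transcript used.

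Among the scaffolds, Eif4g1 measured 9.55, 9.54, 9.51, 9.45 and 9.56 against 9.40, 9.45, 9.44, 9.39 and 9.53, a difference of 0.08 (SE 0.06). Its paralog Eif4g3 measured 7.34, 7.33, 7.33, 7.25 and 7.31 against 7.21, 7.27, 7.21, 7.24 and 7.32, a difference of 0.06 (SE 0.05). In both, control replicates 3 and 6 lay within the range of the libraries labelled knockout. Eif4g2, the scaffold without an eIF4E site, differed by 0.02 (SE 0.05). Per kilobase Eif4g1 (6.99) stood above Eif4g3 (4.26).
The helicase genes were below 0. Eif4a1 measured 5.85, 5.87, 5.89, 5.93 and 5.84 against 5.95, 5.93, 5.91, 5.97 and 5.88, a difference of -0.05 (SE 0.06), and Eif4a2 measured 7.98, 8.03, 8.05, 8.08 and 7.94 against 8.07, 8.08, 7.98, 8.09 and 8.02, a difference of -0.03 (SE 0.06). The groups overlapped for both helicases. Eif4a2 was the more abundant helicase mRNA, at 6.59 against 4.24 per kilobase of the longest transcript and 6.89 against 5.07 of the principal one. Eif4a3, the helicase of the exon junction complex, differed by -0.09 (SE 0.08), and the helicase partners Eif4b (0.0075) and Eif4h (0.0021) lay near 0. Of the repressors, Eif4ebp2, which sequesters eIF4E until mTORC1 phosphorylates it, differed by 0.07 (SE 0.06), and Eif4enif1, the eIF4E transporter, by -0.03 (SE 0.07). Eif4ebp3 was the member left out of the test for its low level, at -0.66 ± 0.32 log2 CPM (SD, n = 5) for the knockout label and -0.97 ± 0.48 (SD, n = 5) for the control label, and without the filter it did not pass (adjusted p = 0.833).

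Genes that work with the cap and the poly(A) tail gave no call in 19 tested, and 2 higher and 2 lower calls with genotype and litter only, against 5.15% and 3.48% of all genes. Pdcd4, an inhibitor of eIF4A, lay between 3.03 and 3.17 in the libraries labelled knockout and between 3.23 and 3.32 in those labelled control. Rps6kb1, the S6 kinase that marks Pdcd4 for degradation, measured 5.0 to 5.06 against 5.13 to 5.2. Both were lower without overlap in the libraries labelled knockout, with differences of -0.19 for Pdcd4 (SE 0.09, adjusted p = 0.490) and -0.16 for Rps6kb1 (SE 0.06, adjusted p = 0.394), or 0.0322 and 0.0146 with genotype and litter only. Cyfip1, a partner of eIF4E in repression (0.14), and Gigyf2, a partner of Eif4e2 (0.10), were higher without overlap, with adjusted p-values of 0.517 and 0.608, or 0.0465 and 0.0481 with genotype and litter only. Without overlap, 7.63% of all genes were lower and 8.56% higher.

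The genes of eIF5, eIF5A, eIF5B and eIF6 act from start codon recognition onward or on the large subunit, and all 5 had differences below 0, with a median of -0.10. Eif5, which makes eIF2 hydrolyse its GTP at the start codon, measured 7.27, 7.29, 7.30, 7.35 and 7.27 in the libraries labelled knockout and 7.43, 7.39, 7.40, 7.43 and 7.34 in those labelled control. Only knockout replicate 4 and control replicate 6 crossed, and the difference was -0.10 (SE 0.05, adjusted p = 0.560). With genotype and litter only its adjusted p was 0.0577, the lowest of any member in any fit made, and Eif5 was singled out after its values were seen. Eif6, which keeps the subunits apart, did not overlap between labels (-0.10, SE 0.07, adjusted p = 0.693), at 4.11, 4.11, 4.08, 4.16 and 4.17 against 4.26, 4.19, 4.30, 4.19 and 4.19. Eif5b, the GTPase of subunit joining, differed by -0.05 (SE 0.05).
Eif5a, the hypusinated factor that helps ribosomes through difficult peptide bonds, measured 7.43, 7.42, 7.36, 7.43 and 7.53 against 7.53, 7.48, 7.62, 7.41 and 7.52, a difference of -0.08 (SE 0.06). Its paralog Eif5a2 had the lowest log2 CPM of the members tested, at 0.45, 0.37, 0.49, 0.42 and 0.32 against 0.55, 0.50, 0.51, 0.81 and 0.35. Control replicate 5 set the upper end of Eif5a2, whose difference of -0.13 was the lowest of all members but had an SE of 0.19 (adjusted p = 0.871) and ran from -0.20 (without control replicate 6) to -0.04 (without control replicate 5). Per kilobase Eif5a (6.95) exceeded Eif5a2 (-1.85). The 2 enzymes that make hypusine, Dhps (-0.05) and Dohh (-0.06), did not pass the test.

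When each group was summarised in each library by the median deviation of its genes from their own means, 2 of the 8 groups separated the labels. For eIF4 the libraries labelled knockout lay between 0.0057 and 0.022 and the controls between -0.043 and -0.0030. For eIF5 and eIF6 the libraries labelled knockout lay between -0.060 and -0.015 and the controls between -0.0053 and 0.081. Among all genes tested, 16.2% separated the labels singly, and no such share was worked out for medians of groups. No test was made of these shifts. The other groups overlapped, eIF2 at -0.056 to 0.051 against -0.086 to 0.080, eIF2B at -0.052 to 0.035 against -0.019 to 0.078, and eIF3 at -0.061 to 0.0080 against -0.050 to 0.053.

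**Figure D4:**
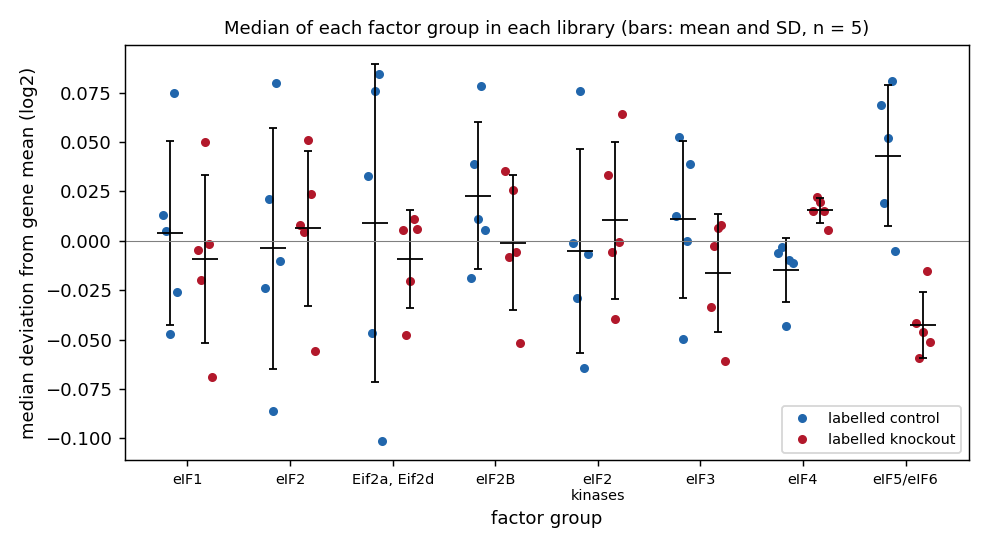
Median deviation of the genes of each factor group from their own means over 10 libraries (log2, y axis) in each library labelled control (blue) and knockout (red), with bars for the mean and SD of 5 libraries. The labels separate for eIF4 (knockout above) and for eIF5 with eIF6 (knockout below), and overlap for the other 6 groups. Taken singly, 16.2% of all genes tested separate the labels.

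Differences over the whole table moved with transcript length, with a median of -0.04 among the shortest transcripts and 0.05 among the longest when genes were cut into 5 classes. Across the 51 members the same relation had a Pearson r of 0.144 and a Spearman rho of 0.195, against 0.156 and 0.232 over 12110 genes, as a description, since all genes share the same 10 libraries. The eIF5 and eIF6 genes were below 0 in 5 of 5 against genes of like length, with a median of -0.095, while eIF2B moved from -0.03 to -0.0038 and the eIF2 kinases from 0.04 to 0.03. The part of length in these differences was not tested further.

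**Figure D5:**
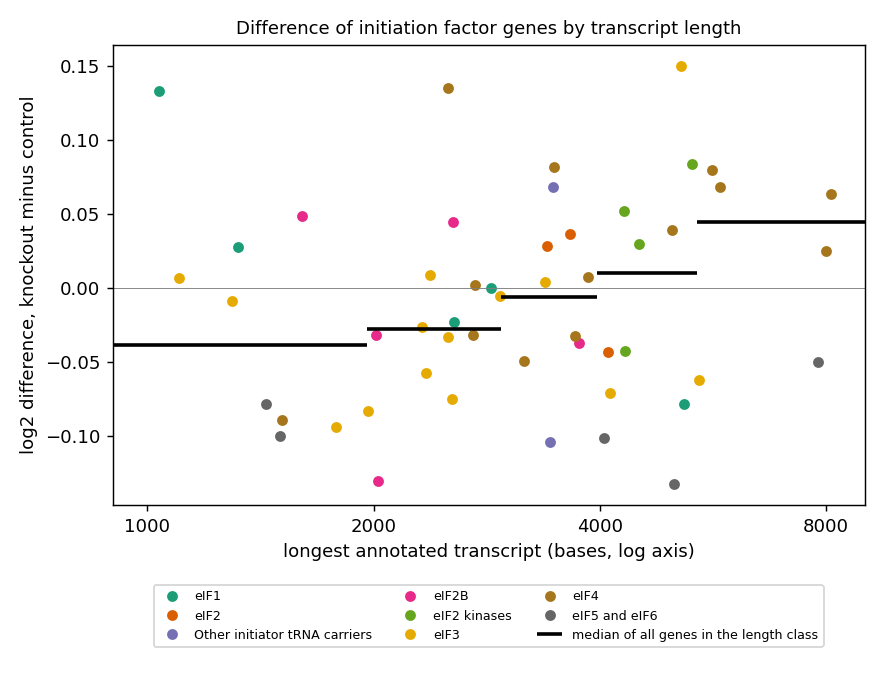
Log2 difference (labelled knockout minus labelled control, y axis) of the 51 members against the length of the longest annotated transcript (bases, log axis), coloured by factor group, with black bars at the median of all genes in each of 5 length classes. The black bars climb from -0.04 to 0.05, and the eIF5 and eIF6 genes lie below 0 at every length.

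Some values may mix genes. Close copies such as Eif3j1 and Eif3j2, Eif4a1 and Eif4a2, Eif1 and Eif1b, and Eif2s3x with its Y-linked copy share sequence, and 10 annotated pseudogenes are named after initiation factors, none of them in the table. Exons of 14 members overlap those of a gene on the opposite strand, and for 9 of these the other gene was also in the table, with 1643 bases shared between Eif5b and Rev1. The kit marks strand, but the sources used here do not say whether counting used it. Strand cannot separate overlaps on the same strand. There, Eif4ebp3 shares 501 bases with AC115631.1, a protein-coding gene in the table, and Eif4e3 shares 373 with Gm20696, which was not in it.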

How the data were processed

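RNA was measured in 5 libraries labelled knockout and 5 labelled control. Extraction was with TRIzol and the oligo-dT kit kept strand, per the labels' protocols, and fastp, kallisto and limma were used, per the submitters' processing notes, without versions. The sources used here do not give build, annotation or strand setting. The authors deposited adjusted log2 CPM for 13492 genes, which sum to between 960166 and 1016398 CPM in a library. In these deposited log2 values litter had been removed with genotype kept (largest litter coefficient 6.7e-14), and residuals spanned 3 dimensions where genotype and litter leave 6, so 3 further terms had been removed. The sources used here do not name them. Counts were not used, so counting error cannot be stated and depth is unknown. SDs and SEs leave out the removed variation.

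Differences were fitted with limma 3.58.1 in R 4.3.3 (lmFit, eBayes with a trend, two-sided) with genotype, litter and the removed terms, on 12223 genes that averaged 0 or more in log2 CPM, with Benjamini-Hochberg adjustment over all of them at 0.05 and no pseudocount. A fit with genotype and litter only was made beside it. The steps were tested on simulated data. Alternatives were other filters, a pseudocount, median centring, quantile normalization, no trend, a robust prior, no litter term, length classes centred, a replicate block and leaving out each library. Lengths came from GENCODE M21, matched for 99.1% of genes tested, and sequences from RefSeq on GRCm38.p6. The motifs were chosen after start windows had been seen.

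Members and lists were chosen with earlier results of these data known. Per-library values were given for any member past the threshold, the 3 largest differences each way, eIF2 subunits, eIF2 kinases and paralog pairs. From each other list up to 4 genes past the threshold in either fit were named, or else the 2 with the lowest p. Other genes with values, among them Eif5, Eif6, Gcn1, Ppp1r15a, Ppp1r15b, Dnajc3, Atf4, Atf5 and Mthfd2, were named outside that rule after their values were seen. Replicate numbers were not taken as pairs outside the replicate block. Eif4e1b was not analysed here.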

Additional observations from a re-analysis of the deposited data

Results flagged for a closer look

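In 7 of 122 groups of 5 libraries checked, 1 library stood apart from the other 4 by Dixon's test, and chance alone gives about 1 in 20. Knockout replicate 4 stood apart in 3 genes. Eif4g3 measured 7.25 log2 CPM there, below the other libraries labelled knockout (7.31 to 7.34). Eif4e3 measured 5.43 there, above the others (5.25 to 5.28), and Rps6kb1 measured 5.06, above the others (5.0 to 5.01). Control replicate 5 stood apart in 3 genes. Eif2ak1 measured 5.55 there, below the other controls (5.64 to 5.66). Eif1a measured 3.65, above the others (3.35 to 3.42), and Shmt2 measured 4.37, above the others (4.27 to 4.29). Slc7a5 measured 1.1 in control replicate 4, below the other controls (1.2 to 1.24). Knockout replicate 4 and control replicate 5 belong to litter 112, and control replicate 4 to litter 110.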

How the results depend on the processing

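No initiation factor gene passed the threshold under any of the 21 alternatives, 10 of which left out 1 library each. The number of all genes called was 41. It was 1054 with genotype and litter only, 26 after quantile normalization and 1 without a trend, and between 8 and 60 with 1 library left out (control replicate 1 gave the 8, and knockout replicate 3 gave 11, control replicate 6 gave 17 and control replicate 5 gave 20). The cause was not tested, except that the fit with genotype and litter only counts 6 residual degrees of freedom. Whether the 4 replicate numbers found under both labels pair the samples is not known. Number 4 spans 2 litters. Deviations of same-numbered libraries correlated at -0.846, 0.452, 0.032 and -0.502, and none correlated best with its own number. These correlations cannot decide on pairing. Litter had been removed from the values, so deviations from the label means cancel within each litter. A replicate block called 127 of all genes and no member, and it turned Eif3h to 0.00072.

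With 1 library left out the median of eIF1 ran from -0.030 to 0.050 and that of eIF2B from -0.057 to 0.033, in each case highest without control replicate 5. Other group medians moved by less than the spread between libraries. Signs turned only for genes near 0: Eif4h under median centring (-0.0022) and quantile normalization (-0.0018), Eif4b under quantile normalization (-0.0016), and, with length classes centred, Eif4g2 (-0.020), Eif3h (0.030), Eif1ad (0.0053), Eif3i (0.0016), Eif3b (0.022) and Eif1a (0.028). Leaving out 1 library also turned signs, with ranges of -0.0011 to 0.056 for Eif1, -0.057 to 0.066 for Eif1a, -0.048 to 0.0062 for Eif1ad, -0.012 to 0.091 for Eif2ak3, -0.11 to 0.033 for Eif2b3, -0.0020 to 0.052 for Eif2s1, -0.021 to 0.010 for Eif3b and -0.023 to 0.023 for Eif3c. The ranges were -0.014 to 0.033 for Eif3g, -0.026 to 0.015 for Eif3h, -0.062 to 0.0048 for Eif3i, -0.059 to 0.053 for Eif3j2, -0.010 to 0.024 for Eif4b, -0.058 to 0.0057 for Eif4enif1 and -0.0055 to 0.0088 for Eif4h. Without a turn of sign, the range was -0.20 to -0.044 for Eif5a2, 0.070 (no knockout replicate 3) to 0.19 (no knockout replicate 5) for Eif1b and -0.15 (no knockout replicate 4) to -0.036 (no control replicate 1) for Eif3k. Depth is unknown, so the precision of low genes such as Eif5a2 cannot be given.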

Other observations

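Beyond initiation, the machinery that carries translation on gave no call. None of 9 elongation and termination genes passed the threshold by limma in either fit, and 6 had differences below 0 with a median of -0.03. Eef1a1, the elongation factor that delivers aminoacyl-tRNA in most tissues, differed by -0.10 (SE 0.06, adjusted p = 0.584), while Eef1a2, the form of adult muscle, differed by 0.02 (SE 0.06). Eef1b2, which recharges eEF1A with GTP, differed by -0.13 (SE 0.08). All 4 genes of ribosome recycling and reinitiation lay below 0, from -0.06 (Denr) to -0.0021 (Abcf1), and so did both mitochondrial initiation factor genes, Mtif2 (-0.09) and Mtif3 (-0.02).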
